A study of Mus musculus with 9 samples.

Results

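Clone 3 and clone 2 are lines of 4T1 mouse mammary carcinoma cells labelled as overexpressing the microRNA miR-204-5p, and their RNA was compared gene by gene. The comparison took 6 of the 9 RNA-seq libraries of the study, 3 titled clone 3 and 3 titled clone 2, and set libraries of the same code against each other in pairs. Per the labels, a miR-204-5p overexpression plasmid was transfected with Lipofectamine and stable clones were selected with Zeocin. The labels give an average miR-204-5p level 525-fold above control for clone 3, and 150-fold above control for clone 2. The 3 control libraries are 4T1 cells with the genotype label control, made with a control plasmid per the treatment protocol. They entered the fit so that the spread was estimated over all libraries. Clone 3 and clone 2 are each a single clone, so the level of the microRNA cannot be told apart from any other difference between them.

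Each library carries a code beside its title, and the codes cross the titles. NTC is replicate 1, C-20 is replicate 2 and C-26 is replicate 3 of each of the 3 title groups, and the labels do not say what the codes stand for. The descriptions of the libraries titled clone 3 begin with the number 4, while those titled clone 2 begin with 2. The titles and genotype labels were followed here, and whether they or the codes mark the overexpressing lines could not be settled. In the comparison table that the authors deposited, libraries are grouped by code and not by clone. Each title and code met in a single library, so the spread within a clone includes differences between codes. Nothing in the labels says that the libraries of a clone came from separate cultures, so the p-values measure only the spread between these samples, which may be technical.

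miR-204-5p binds messenger RNAs mostly in their 3′ untranslated regions (UTRs), where bases 2 to 8 of the microRNA, the seed, pair with the message, and the bound messages are repressed or degraded. Published targets include the survival factor Bcl2 and the deacetylase Sirt1, and the microRNA is mostly described as lowered in carcinomas. Its gene lies within the ion channel gene Trpm3. The mature microRNA is shown because its seed, in capitals, fixes which message sites it pairs with. The sequence is that of RefSeq on GRCm38.p6, at chr19:22750610-22750631 on the plus strand.
mmu-miR-204-5p: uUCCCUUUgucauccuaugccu
The complement of the seed followed by an A is the 8mer site AAAGGGAA. Libraries were made from polyadenylated RNA, and a mature microRNA carries no poly(A) tail. The precursor gene Mir204 stood at 0 FPKM in every library, and Trpm3 reached at most 0.103 FPKM, so the overexpression given by the labels could not be checked in these data.

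The libraries had 14883 to 15261 genes above 0 in clone 3, 15137 to 18283 in clone 2 and 15621 to 17567 in control. Numbers of reads are not analysed here, and the depth of a library is known only relative to the others. It was estimated from the most common FPKM ratio to control replicate 1 over 1309 low genes with 1 transcript. The estimate was 0.899 to 1.07 in clone 3, 0.919 to 1.04 in clone 2 and 0.995 to 1.16 in control. The ratio was sought only in a narrow window, so a large difference in depth could not have been found. Of 1446 olfactory and vomeronasal receptor genes, which mammary cells are not known to use, 0.968% to 1.66% were above 0 in clone 3, 2.49% to 16.3% in clone 2 and 3.39% to 9.20% in control. Markers of other cells that a culture could hold were few: the genes expressed highly enough to be tested were 3 of 12 for endothelial cells, 3 of 14 for fibroblasts and 2 of 21 for leukocytes. Their summed levels in clone 3, clone 2 and control were 21.9 to 23.8, 18.4 to 21.8 and 12.6 to 24.3 FPKM for endothelial genes, and 89.3 to 140.2, 111 to 131 and 56.7 to 75.4 FPKM for fibroblast genes. For leukocyte genes they were 10.3 to 12.7, 9.37 to 16.5 and 8.15 to 11.6 FPKM. Most of these sums came from Egfl7, Fbln2, Cd14 and Cd68. Defining markers were near 0: in any library the endothelial Cdh5 reached at most 0.0527 FPKM, the fibroblast collagen Col1a2 0.0882 FPKM and the leukocyte antigen Ptprc 0.128 FPKM, and Cd3e was at 0 throughout. Of 35 epithelial genes 29 were tested, and over all 9 libraries Cdh1 had 41.9 to 81.8 FPKM and Krt18 191 to 697 FPKM, while Krt5 and Cldn1 reached at most 0.0203 and 0.0416 FPKM. Of 23 mesenchymal genes 10 were tested, and Vim had 219 to 1909 FPKM and Fn1 138 to 586 FPKM. Others were near 0, such as Cdh2, Zeb1 and Snai2, which reached at most 0.00899, 0.0312 and 0.0322 FPKM. The part of the receptor and depth differences in the results was not tested.

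Clone 3 differed from clone 2 in genes of several pathways. Genes of cholesterol and fatty acid synthesis, DNA replication, the proteasome and antioxidant defence were higher in clone 3, and the immediate early genes Fos, Egr1 and Fosb were lower. The largest decreases were in long, AT-rich messages such as Arhgap5, Rock1, Cenpe and Kif20b. Of 10783 genes at 1 FPKM or more in at least 3 of the 9 libraries, 1306 (12.1%) were called higher and 1870 (17.3%) lower in clone 3, together 29.5%, with a median log2 change of 0.04 over all tested genes. A gene was called at a Benjamini-Hochberg adjusted p below 0.05 in limma on log2(FPKM + 1), with the code as a block. Every fold change below is clone 3 over clone 2 on that scale, which understates changes of low genes.

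Decreases went further than increases. Among called genes, 145 were at least 2-fold higher and 893 at least 2-fold lower in clone 3, while 2 were at least 4-fold higher and 154 at least 4-fold lower. The clone 3 and clone 2 libraries did not overlap for 1135 of the 1306 higher and 1654 of the 1870 lower genes, against 4833 of all 10783 tested genes. By single pairs, 206 genes were at least 2-fold higher and 627 at least 2-fold lower between the NTC libraries. Between the C-20 libraries these were 548 and 1129 genes, and between the C-26 libraries 62 and 1212. The first principal component of all tested genes held 53.4% of the variance. Its scores were 23.4, 49.0 and 56.0 in the clone 3 libraries, against −29.7, −25.0 and −8.95 in clone 2 and −38.9, −6.88 and −19.0 in control. All 3 clone 3 libraries lay on the positive side and all others on the negative side.

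The control libraries mostly lay on the side of clone 2. The control mean was nearer to clone 2 than to clone 3 for 1091 of the 1306 higher genes (83.5%) and 1646 of the 1870 lower genes (88.0%), against 7609 of all tested genes (70.6%). The call counts leaned on single libraries. Without the code as a block 650 genes (6.03%) were called higher and 1380 (12.8%) lower. Leaving out clone 3 replicate 1, 2 or 3 gave 846, 166 and 563 higher and 1927, 1049 and 1130 lower genes. Leaving out clone 2 replicate 1, 2 or 3 gave 725, 175 and 720 higher and 1479, 1064 and 1298 lower genes, and without control replicate 1 there were 2221 and 2443. Of all calls 41.1% were higher, which was 51.8% with quantile normalization.

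**Figure D1:**
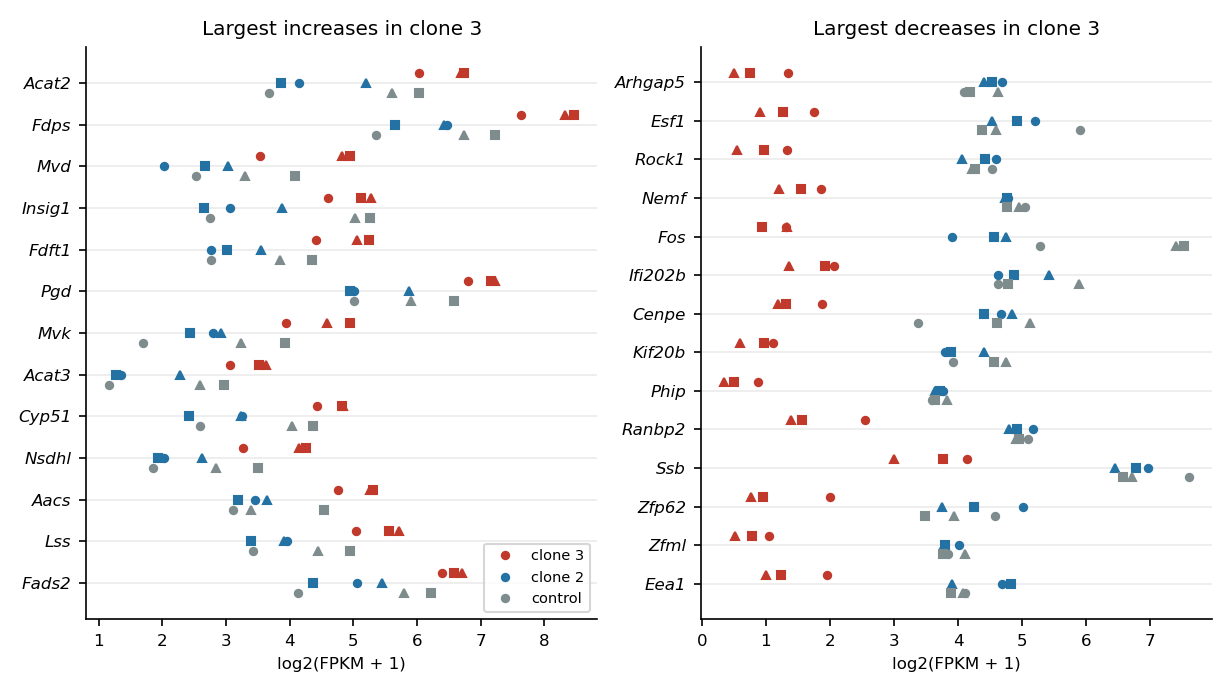
Levels of 13 genes among the largest increases and of the 14 genes with the largest decreases in clone 3 among called genes reaching a mean of 5 FPKM, as log2(FPKM + 1) on the horizontal axis. Each point is 1 library (circle replicate 1, square replicate 2, triangle replicate 3; clone 3 red, clone 2 blue, control grey), and the clone 3 points lie beyond those of clone 2 for all 27 genes.

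The direction of change ran with the GC content of the transcript. Genes called higher had a median GC content of 54.6% and a median transcript length of 2477 bases, and genes called lower had 42.1% and 4519 bases, against 49.7% and 3403 bases over all tested genes. Genes were divided into 5 equal bins by GC content. In the bin with the lowest GC content (31.0% to 43.9%), the median log2 change was −0.71, with 29 genes called higher and 1233 lower. In the bin with the highest (55.6% to 72.8%), it was 0.31, with 533 genes higher and 26 lower. The medians of the bins between them were −0.14, 0.09 and 0.24, each above the one before. Across 10492 genes with an annotated transcript, the log2 change had a Pearson r of 0.60 with GC content and −0.32 with log2 length. Genes are not independent replicates, and FPKM of the same libraries lies behind all of them.

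The gradient was present in every pair and in every clone 3 library. The median difference of the bin with the lowest GC content was −0.50 between the NTC libraries, −0.71 between C-20 and −0.89 between C-26. As a deviation from the gene mean over all libraries, the same bin stood at −0.22, −0.50 and −0.69 in clone 3, against 0.29, 0.22 and 0.20 in clone 2 and 0.28, 0.20 and 0.36 in control. Clone 2 and control thus lay together and clone 3 apart, with clone 3 replicate 1 the least far. By transcript length the medians declined from bin to bin, at 0.25, 0.14, 0.08, −0.05 and −0.26 from the shortest to the longest transcripts. Among the 20 chromosomes the median log2 change ran from −0.18 on chromosome 13 to 0.20 on chromosome 7, and its r with the chromosome's median GC content was 0.96 (n = 20 chromosomes of the same libraries). The source of the gradient was not tested.

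**Figure D2:**
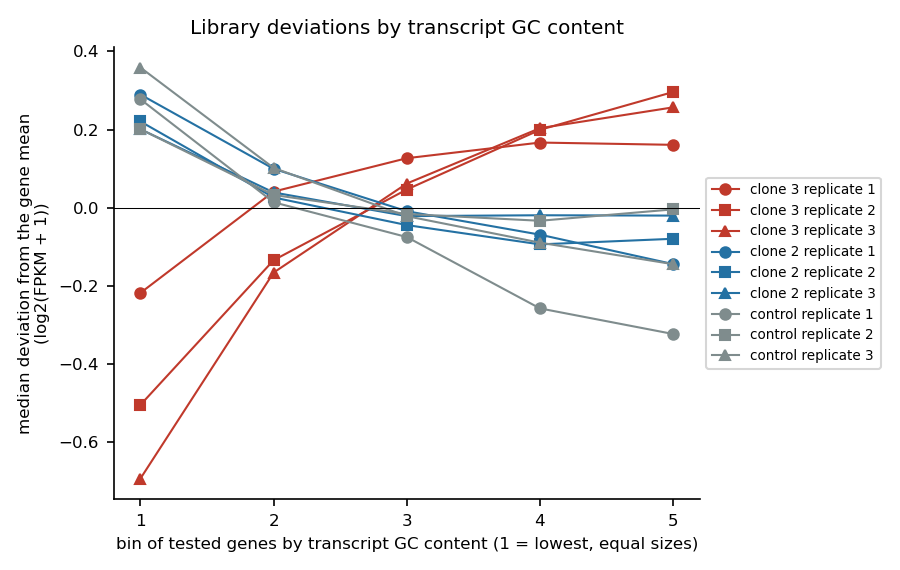
Median deviation of each library from the mean over libraries, in log2(FPKM + 1), for 5 equal bins of the tested genes by transcript GC content. The clone 3 libraries (red) run from −0.22, −0.50 and −0.69 in the lowest bin to values above 0 in the highest, and the clone 2 (blue) and control (grey) libraries run the other way.

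Results were therefore also computed, for the genes with an annotated transcript, after transcript length and GC content had been taken out of every library with splines. The correction removes any difference that runs with length or GC content, whatever its source. It left 1037 genes higher (9.88%) and 1000 lower (9.53%) of 10492 genes. The medians of the 5 GC bins were then 0.03, 0.06, −0.01, 0.01 and 0.01. Of the genes called as deposited, 446 of the higher and 756 of the lower were also called in the same direction after correction. Values after this correction are given below as corrected values. Corrected counts of gene lists stand against the 9.88% higher and 9.53% lower of all corrected genes. They can include genes that were not called as deposited.

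**Figure D3:**
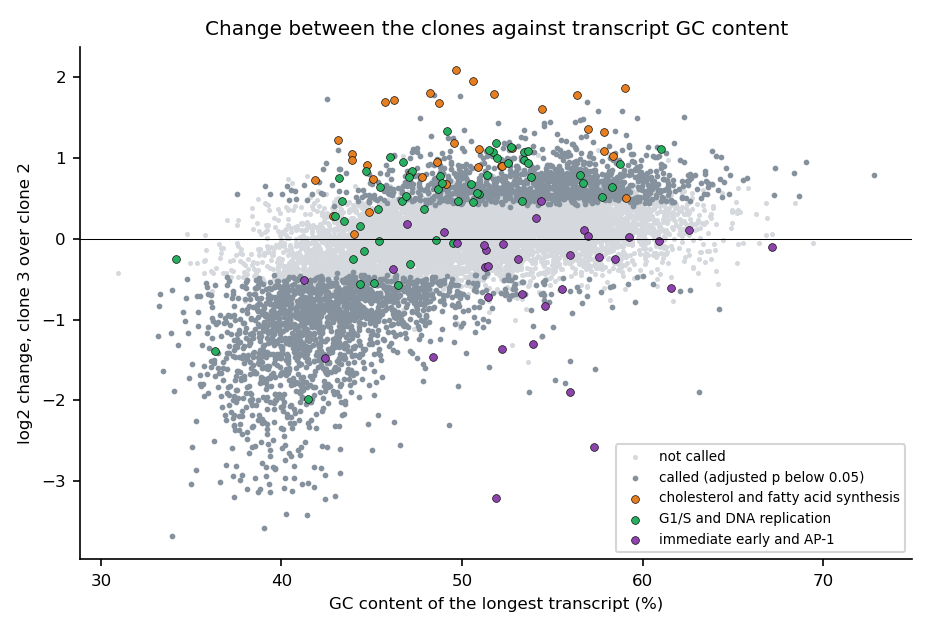
Log2 change of clone 3 over clone 2 for tested genes against the GC content of its longest transcript, with called genes in dark grey. Most cholesterol and fatty acid synthesis genes (orange) lie above the bulk of genes, Fos, Egr1 and Fosb (purple) far below it, and genes lower in clone 3 gather at low GC content.

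Genes of cholesterol and fatty acid synthesis were higher in clone 3 nearly throughout. The sterol pathway builds cholesterol from acetyl-CoA by way of mevalonate and squalene, and the SREBP transcription factors switch on its genes when membranes run low in sterol. Of the 37 tested members 29 were called higher and 0 lower, and all 37 had a log2 value above 0, with a median log2 change of 1.12. Over all tested genes 12.1% were called higher and the median was 0.04. After correction 29 were higher and 0 lower, with a median of 1.21, and without the block 21 were higher. The count was 12 without clone 2 replicate 2, 16 without clone 3 replicate 2 and 19 without clone 3 replicate 1, and 21 to 33 without each other library.

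At the entry of the pathway, Acat2, which joins acetyl-CoA units in the cytosol, had 64.6, 106 and 102 FPKM in clone 3, against 16.7, 13.6 and 35.6 FPKM in clone 2, and 11.8, 64.5 and 47.8 FPKM in control. The clones did not overlap, and the change was 2.09 ± 0.39 (SE; adjusted p = 0.00381). Its near-copy Acat3 is listed with a like change (1.77), which is uncertain because reads of near-identical genes may be shared out between them. Hmgcs1, which makes HMG-CoA, had 23.2, 31.6 and 24.4 FPKM in clone 3, against 10.8, 9.11 and 12.1 FPKM in clone 2. It was higher in each clone 3 library than in any of clone 2 (log2 change 1.22). The mevalonate steps that follow rose as well, with log2 changes of 1.78 for the kinase Mvk, 1.36 for the next kinase Pmvk and 1.86 for the decarboxylase Mvd. Mvd had 10.6, 29.9 and 27.3 FPKM in clone 3, against 3.08, 5.36 and 7.19 FPKM in clone 2, with the smallest level in the NTC library of each clone. The isomerase Idi1 was not called (0.72, adjusted p = 0.213), and its C-26 libraries went the other way, with 15.2 FPKM in clone 3 and 17.6 FPKM in clone 2.

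The steps to squalene and lanosterol showed some of the largest changes of all genes. Fdps, which makes farnesyl diphosphate, had 199, 354 and 319 FPKM in clone 3, against 88, 49.6 and 85.2 FPKM in clone 2 (log2 change 1.96 ± 0.37, adjusted p = 0.00432). Fdft1, the squalene synthase, had 20.2, 36.9 and 32.5 FPKM in clone 3, against 5.76, 7.12 and 10.7 FPKM in clone 2 (log2 change 1.80, adjusted p = 0.000452). Squalene epoxidase Sqle rose less (log2 change 0.96) and lanosterol synthase Lss more (1.68). Below lanosterol, the demethylase Cyp51 (1.72), the C4 demethylation enzymes Sc4mol, Nsdhl and Hsd17b7 (0.91, 1.70 and 1.05), the isomerase Ebp (0.89) and the reductases Tm7sf2 and Dhcr7 (1.12 and 1.12) were all called. Sc5d, which adds a double bond late in the pathway, was not (0.29, adjusted p = 0.231; corrected 0.86, adjusted p = 0.00708).

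Control libraries overlapped clone 3 for a share of the list. For 11 of the 29 called genes the control range overlapped that of clone 3. The control mean was nearer to clone 2 for 25 of the 29, a share near the 83.5% of all higher genes.

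Regulators of the pathway were called in part. Srebf2, the SREBP of sterol genes, and Srebf1, that of fatty acid genes, were higher in clone 3 (log2 change 1.08 and 1.02, adjusted p = 0.0107 and 0.0396). Insig1, a sterol sensor that holds SREBPs back and is itself an SREBP target, had 23.3, 33.8 and 37.8 FPKM in clone 3, against 7.36, 5.27 and 13.7 FPKM in clone 2 (log2 change 1.81), and its control replicates 2 and 3 stood at 37.6 and 31.7 FPKM. Its call was lost without clone 3 replicate 1, clone 3 replicate 2 or clone 2 replicate 2. Scap, the escort of SREBPs, was not called (0.50, adjusted p = 0.0913).

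Fatty acid genes were part of the pattern. Fatty acid synthase Fasn had 72.1, 99.7 and 134 FPKM in clone 3, against 30.3, 35.6 and 54.6 FPKM in clone 2 (log2 change 1.32), and the enzymes that supply it, Acly and Acaca, rose by 0.90 and 0.68 on the log2 scale. Among the desaturases, Scd1, Scd2, Fads1 and Fads2 had log2 values of 0.80, 1.18, 0.90 and 1.61. Fads2 lost its call without clone 3 replicate 1, clone 3 replicate 2 or clone 2 replicate 2. The elongases Elovl6 (0.06) and Elovl5 (0.33) and the acetyl-CoA synthetase Acss2 (0.77) were not called. Aacs, which turns acetoacetate into a sterol precursor and is outside the list, had 26.2, 38.6 and 37.3 FPKM in clone 3, against 9.92, 8.09 and 11.5 FPKM in clone 2 (log2 change 1.69, adjusted p = 0.00217).

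**Figure D4:**
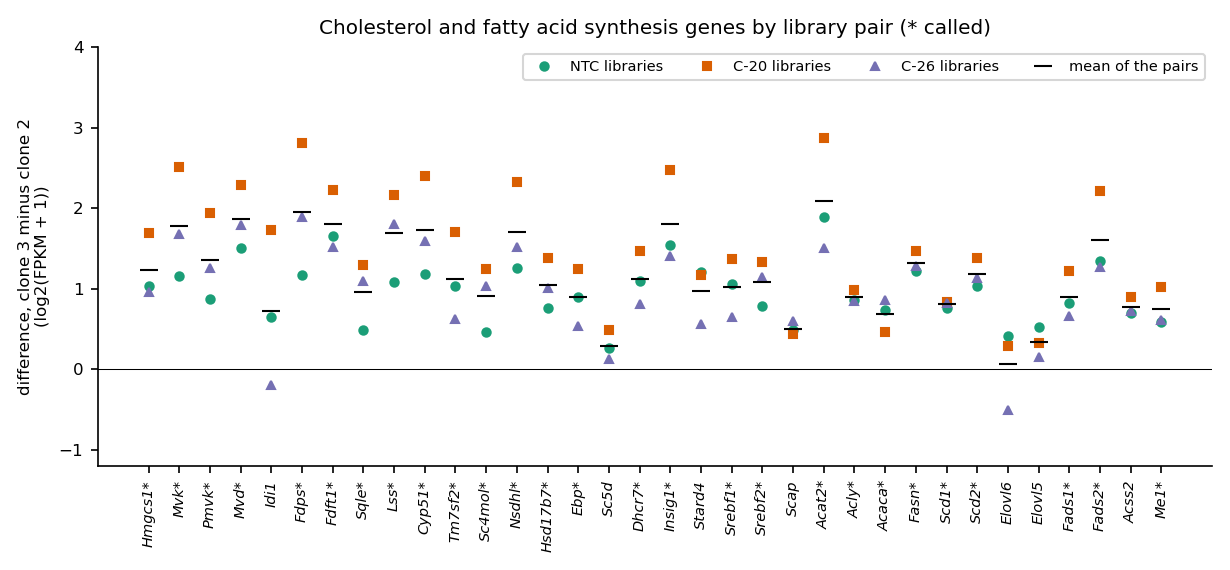
Difference of clone 3 minus clone 2 in log2(FPKM + 1) for 34 tested genes of cholesterol and fatty acid synthesis between libraries of the same code. Bars are the mean of the 3 pairs and asterisks mark called genes; 32 genes lie above 0 in all 3 pairs, and Idi1 and Elovl6 lie below it between the C-26 libraries.

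Promoters of the sterol genes were searched for the letters TCACNCCAC, the core of the sterol response element, on both strands from 250 bases before to 50 bases after the start site. In RefSeq promoters on GRCm38.p6 these letters were found in 1 of 27 matched sterol genes (3.70%) and in 109 of 8682 tested genes (1.26%). The match is printed because it is the single one in the list, with the motif in capitals; it lies at chr13:119690204-119690232 on the plus strand, which is the strand of the gene.
Hmgcs1 promoter: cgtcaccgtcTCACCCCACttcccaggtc
The motif was chosen with the changes known, and a match of letters is a description and not a binding site.

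DNA replication genes formed the second group that was higher. Genes of the passage from G1 to S phase license origins, make nucleotides and copy DNA, and many are under E2F transcription factors. Of 55 tested members 30 were called higher and 4 lower, with a median log2 change of 0.64, against 12.1% and 17.3% called over all tested genes. Corrected counts were 25 and 1 with a median of 0.59, and without the block 19 and 2. Without clone 3 replicate 2, clone 2 replicate 2, clone 2 replicate 1 and clone 3 replicate 1 the higher count was 8, 9, 14 and 16, and 26 to 38 without each other library.

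Cdc6, which loads the replicative helicase, had 23.5, 22.2 and 30.7 FPKM in clone 3, against 6.64, 6.64 and 18.3 FPKM in clone 2, and 31.9, 23.3 and 20.8 FPKM in control (log2 change 1.33 ± 0.29, limma adjusted p = 0.00891). Clone 3 and control lay together and clone 2 below them, and the call was lost without clone 3 replicate 2 or clone 2 replicate 2. The helicase genes Mcm2, Mcm3, Mcm5, Mcm6 and Mcm7 rose by 1.07, 0.94, 1.004, 0.84 and 1.07 on the log2 scale. Mcm4 was not called (0.64, adjusted p = 0.0801). Thymidine kinase Tk1 had 93.5, 125 and 120.5 FPKM in clone 3, against 42.5, 39.2 and 69.8 FPKM in clone 2 (log2 change 1.18, adjusted p = 0.00335), and the ribonucleotide reductase subunit Rrm2 had 136, 156 and 166 FPKM in clone 3, against 68.6, 58.4 and 105 FPKM in clone 2 (log2 change 1.01). Cyclin E1 Ccne1, which drives S phase entry with Cdk2, rose by 1.14, and the single-strand binding subunit Rpa2 by 1.10. The sliding clamp Pcna was not called (0.37, adjusted p = 0.172).

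The 4 members called lower were Pola1, Ccne2, Rfc1 and Orc2. Pola1, the catalytic subunit of the priming polymerase, had 2.69, 1.83 and 1.01 FPKM in clone 3, against 10.9, 9.49 and 9.29 FPKM in clone 2 (log2 change −1.98; corrected −1.19), and it alone of the 4 was called after correction. Its partner Pola2 was higher (0.76). Cyclin E2 Ccne2 fell, with a log2 change of −1.38 as deposited and a value of −0.11 after correction (adjusted p = 0.796). The control mean was nearer to clone 2 for 14 of the 34 called members, beside 83.5% of all higher and 88.0% of all lower genes.

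Promoters were searched for TTTCCCGC, letters of the E2F site, on both strands in the same windows. They were found in 9 of 43 matched replication genes (20.9%) and in 232 of 8682 tested genes (2.67%). The windows of 3 genes called higher are shown, with the motif in capitals as read on the strand of the gene; all hold its reverse complement. They lie at chr11:98908003-98908030 on the plus strand (Cdc6), chr5:138172031-138172058 on the minus strand (Mcm7) and chr1:20820276-20820303 on the minus strand (Mcm3) of GRCm38.p6, from RefSeq promoters.
Cdc6 promoter: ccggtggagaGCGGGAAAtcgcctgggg
Mcm7 promoter: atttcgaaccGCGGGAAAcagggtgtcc
Mcm3 promoter: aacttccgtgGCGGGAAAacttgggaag
Matches were also present in Pold3 and E2f3, whose log2 values were −0.01 and −0.05 and not called. No printed window holds both motifs, and both were chosen with the changes known.

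Mitotic genes were called lower at a larger share than all tested genes, and higher at a share near that of all tested genes. Of 52 tested members of the G2/M list 7 were called higher and 16 lower, with a median log2 change of 0.11. These were 13.5% and 30.8%, against 12.1% and 17.3% of all tested genes. Corrected counts were 5 and 12, with a median of 0.04. Without the block 1 was higher and 15 lower. The higher count was 1 without clone 3 replicate 2 or clone 2 replicate 2, and 19 without control replicate 1. The largest decreases were in large scaffold and motor proteins. Cenpe, the kinesin that carries chromosomes to the spindle equator, had 2.68, 1.48 and 1.28 FPKM in clone 3, against 24.4, 20.1 and 27.7 FPKM in clone 2 (log2 change −3.18 ± 0.37, adjusted p = 0.000241; corrected −2.41). Kif20b, a kinesin of cytokinesis, had 1.15, 0.961 and 0.513 FPKM in clone 3, against 12.8, 13.9 and 20.1 FPKM in clone 2, and Cenpf, a kinetochore protein, had 1.73, 1.14 and 0.82 FPKM in clone 3, against 12.4, 13.8 and 21.2 FPKM in clone 2. The condensin subunit Smc2 had 5.48, 3.05 and 1.78 FPKM in clone 3, against 29.1, 23.8 and 34.5 FPKM in clone 2, and the proliferation antigen Mki67 had 13, 6.5 and 6.58 FPKM in clone 3, against 46.2, 46.2 and 70.7 FPKM in clone 2. None of these 5 overlapped between the clones, and all stayed called after correction. Among the higher members were the anaphase activator Cdc20 (0.97), the kinase Plk1 (0.88), Birc5 (0.78), which works with Aurora B, and Kif22 (0.88). The calls of Cdc20, Plk1 and Birc5 were lost without the block.

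Antioxidant, proteasome and mitochondrial genes were higher by smaller amounts. NRF2 is a transcription factor that raises detoxifying and NADPH-making enzymes, and of 36 tested genes of its list 19 were called higher and 1 lower (median 0.55; corrected 11 and 0, median 0.39; without the block 7 and 1). The called shares were 52.8% and 2.78%, against 12.1% and 17.3% of all tested genes. The higher count ranged from 2 (without clone 3 replicate 2) and 3 (without clone 2 replicate 2) to 24. Pgd, an NADPH-making enzyme of the pentose phosphate pathway, led with 111, 143 and 149 FPKM in clone 3, against 31.4, 30.03 and 58 FPKM in clone 2, and 31.4, 94.5 and 59.1 FPKM in control (log2 change 1.78 ± 0.28, adjusted p = 0.00155). G6pdx, which opens that pathway, had 35.5, 42.7 and 45.6 FPKM in clone 3, against 14.8, 17.5 and 25.1 FPKM in clone 2 (log2 change 1.09), and the ferritin heavy chain Fth1 rose by 0.90. The peroxiredoxin Prdx1 and the glutathione synthesis subunit Gclm rose by 0.87 and 0.70. Nqo1, a much used NRF2 marker, had 9.89, 10.8 and 7.52 FPKM in clone 3, against 4.36, 3.59 and 4.25 FPKM in clone 2 and was not called (log2 change 1.03, adjusted p = 0.0561). The cystine carrier Slc7a11 was the 1 lower gene (−1.40; corrected −0.31, adjusted p = 0.473).

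The proteasome degrades tagged proteins, and 20 of 37 tested subunits were called higher and 1 lower (median 0.55; corrected 16 and 1, median 0.47). Called shares were 54.1% and 2.70%, against 12.1% and 17.3% of all tested genes. The corrected 16 included subunits of low GC content that were not called as deposited. Examples are Psmd11 (log2 change 0.32, corrected 1.11) and Psma3 (−0.05, corrected 0.61), at 39.9% and 40.8% GC. Other subunits, such as Psmc3 and Psmb5, were called only as deposited. The correction raised the lowest GC bin as a whole, so it is no check on subunits of low GC content. The higher count was 17 without the block and 11 with quantile normalization. It was 2 and 3 without clone 3 replicate 2 and clone 2 replicate 2, and 8 to 21 without each other library. Psmd13 of the regulatory cap had 80.1, 116 and 106 FPKM in clone 3, against 34.5, 30.7 and 54.2 FPKM in clone 2 (log2 change 1.35 ± 0.24, adjusted p = 0.00308), while the ATPase subunit Psmc6 had 36.3, 27.4 and 13.2 FPKM in clone 3, against 102, 90.5 and 82.8 FPKM in clone 2 (log2 change −1.91; corrected −0.73, adjusted p = 0.0164). The other subunits called higher changed by 0.49 to 0.90. Of 77 subunits of the respiratory chain 26 were higher and 0 lower (median 0.40; corrected 15 and 2, median 0.21; without the block 15 and 0; with quantile normalization 7 and 2, median 0.20), led by the ATP synthase subunit Atp5k (1.21). Of 76 mitochondrial ribosomal proteins 23 were higher and 4 lower (median 0.40; corrected 15 and 1, median 0.24; without the block 10 and 1). The higher and lower shares were 33.8% and 0% for the respiratory chain, and 30.3% and 5.26% for the mitochondrial ribosome. Without clone 3 replicate 2 and clone 2 replicate 2 the higher counts were 3 and 5 for the respiratory chain, and 2 each for the mitochondrial ribosome. Cytosolic ribosomal proteins gave 4 higher and 1 lower of 83, or 4.82% and 1.20%. Their median of 0.26 was 0.00 after correction and −0.05 with quantile normalization.

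Actin and actin-binding genes gave 14 higher and 1 lower of 45, with a median of 0.36. These were 31.1% and 2.22%, against 12.1% and 17.3% of all tested genes. After correction 5 were higher and 0 lower (median 0.24), the higher count near the 9.88% of all corrected genes. The counts were 7 and 1 without the block and 6 and 3 with quantile normalization, and 2 were higher without clone 3 replicate 2 or clone 2 replicate 2. Beta-actin Actb, often used as a reference gene, had 1541, 2091 and 1991 FPKM in clone 3, against 851, 781 and 1202 FPKM in clone 2 (log2 change 1.002 ± 0.22, adjusted p = 0.0086), and gamma-actin Actg1 had 991, 1629.8 and 2164 FPKM in clone 3, against 419, 585 and 1270.5 FPKM in clone 2. Profilin Pfn1, which feeds actin monomers to growing filaments, rose by 1.16 on the log2 scale. The actin levels were higher in every clone 3 library than in the clone 2 library of its code. The calcium-binding protein S100a4, linked with metastasis, had 368, 512 and 369 FPKM in clone 3, against 125, 138 and 295 FPKM in clone 2 (log2 change 1.25, adjusted p = 0.00591), and its call was lost without clone 3 replicate 2.

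Fos, Fosb, Egr1 and some other immediate early genes were lower in clone 3, but the share of the list called lower was near that of all tested genes. Immediate early genes are switched on within minutes of growth factor or stress signals, and many encode the AP-1 and EGR transcription factors. Of 34 tested members 0 were called higher and 8 lower (23.5%), against 12.1% and 17.3% of all tested genes. The median log2 change was −0.25. After correction 10 were lower, against 9.53% of all corrected genes, with a median of −0.47. Without the block 7 were lower. The lower count was 2 without clone 3 replicate 2, 4 without clone 3 replicate 3 or clone 2 replicate 2, and 14 without control replicate 1.

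Fos, a subunit of AP-1, had 1.49, 0.907 and 1.5 FPKM in clone 3, against 13.9, 22.7 and 25.8 FPKM in clone 2. The control libraries stood highest, at 37.9, 182 and 168 FPKM. The change between the clones was −3.21 ± 0.38 (limma adjusted p = 0.000313; corrected −3.49), and it was kept without each library in turn. Fosb had 1.2, 1.5 and 2.29 FPKM in clone 3, against 10.6, 7.76 and 8.1 FPKM in clone 2, with 23.4, 88 and 73.8 FPKM in control, so that its order was the same (log2 change −1.89, adjusted p = 0.00416). Egr1 had 12.6, 2.92 and 4.0 FPKM in clone 3, against 44.4, 28.6 and 41.4 FPKM in clone 2, and here control, at 13.3, 35.9 and 59.1 FPKM, overlapped clone 2 and lay above clone 3 (log2 change −2.58, adjusted p = 0.00571, lost without clone 3 replicate 2).

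The growth factor Areg, a ligand of the EGF receptor, had 27.7, 22.5 and 17.8 FPKM in clone 3, against 104, 66.1 and 36.8 FPKM in clone 2 (log2 change −1.46, adjusted p = 0.010), and the level in both clones was lowest in C-26. Klf4, Klf6, Egr2 and the ERK inhibitor Spred1 made up the rest of the called members, at −0.83, −1.47, −0.71 and −0.52. Dusp1, a phosphatase that acts on MAP kinases, and Atf3 had large differences that missed the threshold (−1.30 and −1.36, adjusted p = 0.0534 and 0.0597). Other AP-1 members were not called: Junb stood at 0.10 (adjusted p = 0.643), Jun at −0.63 (adjusted p = 0.285) and Fosl1 at −0.25 (adjusted p = 0.466). Egr1 and Fosb were also among the 26 genes of the highest GC bin called lower, 23 of which stayed so after correction. The correction lowered the median of this bin from 0.31 to 0.01, so it is no check on these decreases.

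The largest decreases overall were in AT-rich messages of many functions. Of the 14 genes with the largest decreases, Fos had a GC content of 51.9% and the others had 33.9% to 42.9%. Arhgap5, a GTPase-activating protein, had 1.53, 0.675 and 0.41 FPKM in clone 3, against 24.7, 22.1 and 20.1 FPKM in clone 2 (log2 change −3.68 ± 0.23, adjusted p = 1.78e-05). Its GC content was 33.9%, and the corrected change was −1.65. Rock1, a kinase that drives contraction of actomyosin, had 1.51, 0.957 and 0.46 FPKM in clone 3, against 23, 20.4 and 15.6 FPKM in clone 2 (log2 change −3.41 ± 0.16, adjusted p = 1.03e-05; corrected −2.38). Control lay with clone 2 for both genes, at 16.1, 17.1 and 23.7 FPKM for Arhgap5 and 22, 18.3 and 17.6 FPKM for Rock1.

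The other genes in this group included Esf1 and Nemf, which act in ribosome production and in the rescue of stalled ribosomes (−3.58 and −3.21), and Ranbp2, a nuclear pore protein (−3.13). Ssb, the La protein that binds new RNA polymerase III transcripts, had 16.7, 12.5 and 6.95 FPKM in clone 3, against 124, 109 and 86.2 FPKM in clone 2 (log2 change −3.10; corrected −2.08). Eea1, a tether of early endosomes, changed by −3.07, Phip by −3.13, the zinc finger genes Zfp62 and Zfml by −3.09 and −3.09, and the interferon-activated Ifi202b by −3.19. After correction the changes of all 14 genes of largest decrease, Fos and the mitotic Cenpe and Kif20b included, ran from −3.49 to −1.65. The lowest level of all 9 libraries was that of clone 3 replicate 3, or of clone 3 replicate 2 for Fos.

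RNA-processing genes were prominent among the decreases as deposited, beside 12.1% higher and 17.3% lower of all tested genes. Of 44 tested SR and hnRNP splicing factors 4 were called higher and 17 lower, or 9.09% and 38.6% (median −0.34). After correction 7 were higher and 8 lower (median 0.03), but with quantile normalization 1 and 22 (median −0.51). Srsf10 had 17.9, 11.7 and 7.58 FPKM in clone 3, against 84.7, 58.7 and 45.1 FPKM in clone 2 (log2 change −2.28; corrected −1.64) and the splicing kinase Clk1 13.3, 9.51 and 5.81 FPKM in clone 3, against 56.1, 46.1 and 43.4 FPKM in clone 2 (log2 change −2.29; corrected −1.25). Of 260 zinc finger genes named Zfp, many of them repressors of the KRAB type, 10 were higher and 99 lower (median −0.29). These were 3.85% and 38.1%. The counts were 22 and 42 after correction (median −0.10) and 32 and 81 with quantile normalization. Of 12 tested host genes of small nucleolar RNAs, whose introns carry guide RNAs for ribosomal RNA, 1 was higher and 6 lower (median −0.66). These made 8.33% and 50% of the list. Snhg1 had 239, 76.3 and 35.8 FPKM in clone 3, against 1202, 769.7 and 277 FPKM in clone 2, and Gas5 had 27.4, 16.5 and 9.5 FPKM in clone 3, against 84, 75.2 and 47.1 FPKM in clone 2; both were highest in NTC and lowest in C-26 in each clone, and neither has a corrected value here. The corrected fit covered 5 of the 12. Taf1d, a polymerase I factor that also hosts small nucleolar RNAs, had 24, 19 and 10.1 FPKM in clone 3, against 209, 142 and 86.1 FPKM in clone 2 (log2 change −2.96; corrected −2.04).

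Published targets of miR-204-5p were lower in part as deposited, and less so after correction. Of 27 tested members 2 were called higher and 11 lower, or 7.41% and 40.7%, against 12.1% and 17.3% of all tested genes. The median log2 change was −0.26 (without the block 9 lower, and 6 to 12 without each library). After correction 2 were higher and 4 lower, and the median was 0.08. Their median GC content was 46.3%. The sites below are printed because they are the places where the microRNA could pair with these messages; capitals mark the 8mer, from 3′ UTRs of GENCODE M21 on GRCm38. They lie at chr10:63320298-63320325 on the minus strand (Sirt1), chr1:64599718-64599745 on the plus strand (Creb1), chr1:106543047-106543074 on the minus strand (Bcl2) and chr9:99039614-99039641 on the minus strand (Pik3cb).
Sirt1 3′ UTR: tggaatgttaatgtAAAGGGAAcagctt
Creb1 3′ UTR: cttcatgttggccaAAAGGGAAtggaac
Bcl2 3′ UTR: agctatttactgccAAAGGGAAatatca
Pik3cb 3′ UTR: cctgccagaaatgcAAAGGGAAtgaaat

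Sirt1, a deacetylase, had 6.19, 3.56 and 2.68 FPKM in clone 3, against 16.8, 15.6 and 12.7 FPKM in clone 2, and 15.8, 14 and 14.4 FPKM in control (log2 change −1.69 ± 0.19, limma adjusted p = 0.000195; corrected −1.27, adjusted p = 0.000596). Clone 3 lay below clone 2 and control, which overlapped. Creb1, a transcription factor of cAMP signals, had 5.47, 2.87 and 2.42 FPKM in clone 3, against 20.2, 18.9 and 12.9 FPKM in clone 2 (log2 change −2.03; corrected −0.83, adjusted p = 0.0057). Bcl2, which blocks apoptosis, had 3.72, 2.94 and 2.88 FPKM in clone 3, against 4.97, 5.71 and 6.13 FPKM in clone 2, without overlap, and 3.58, 4.54 and 5.58 FPKM in control (log2 change −0.66 ± 0.18, adjusted p = 0.022). The Bcl2 call was lost after correction (−0.28, adjusted p = 0.155) and without each of clone 3 replicates 2 and 3 and clone 2 replicates 1, 2 and 3.

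Pik3cb, a catalytic subunit of PI3-kinase, had 8.71, 6.86 and 7.56 FPKM in clone 3, against 12.2, 7.54 and 6.44 FPKM in clone 2, with overlap (log2 change −0.12 ± 0.17, adjusted p = 0.611). Of 39 tested PI3K pathway genes 3 were higher and 9 lower, or 7.69% and 23.1%, near the shares of all tested genes (median −0.16, which was 0.06 with quantile normalization; corrected 1 and 2, median 0.02). Pik3c2a, a class II kinase of the family, had 3.8, 1.66 and 1.17 FPKM in clone 3, against 16, 13.4 and 11.4 FPKM in clone 2 (log2 change −2.26; corrected −1.002). Other target genes with a matched 8mer were not called lower: Tgfbr2 stood at 0.22 and Ezr at 0.64 on the log2 scale, both not called, and Ap1s1 rose by 0.62 (adjusted p = 0.0129). Sox4 and Runx2, transcription factors of development, were called lower as deposited (−0.99 and −0.72) and after correction (−1.08 and −0.66).

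Over the whole transcriptome, 756 tested genes had the 8mer in the 3′ UTR and 6328 lacked its core AAGGGA, out of 10404 tested genes with an annotated 3′ UTR. The median log2 change was −0.21 with the 8mer and 0.09 without the core, with 28.4% and 15.0% called lower. After correction the medians were 0.00 and 0.02. Genes with the site had a lower median GC content (46.8% against 50.5%) and a longer 3′ UTR (2716 against 910 bases).

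**Figure D5:**
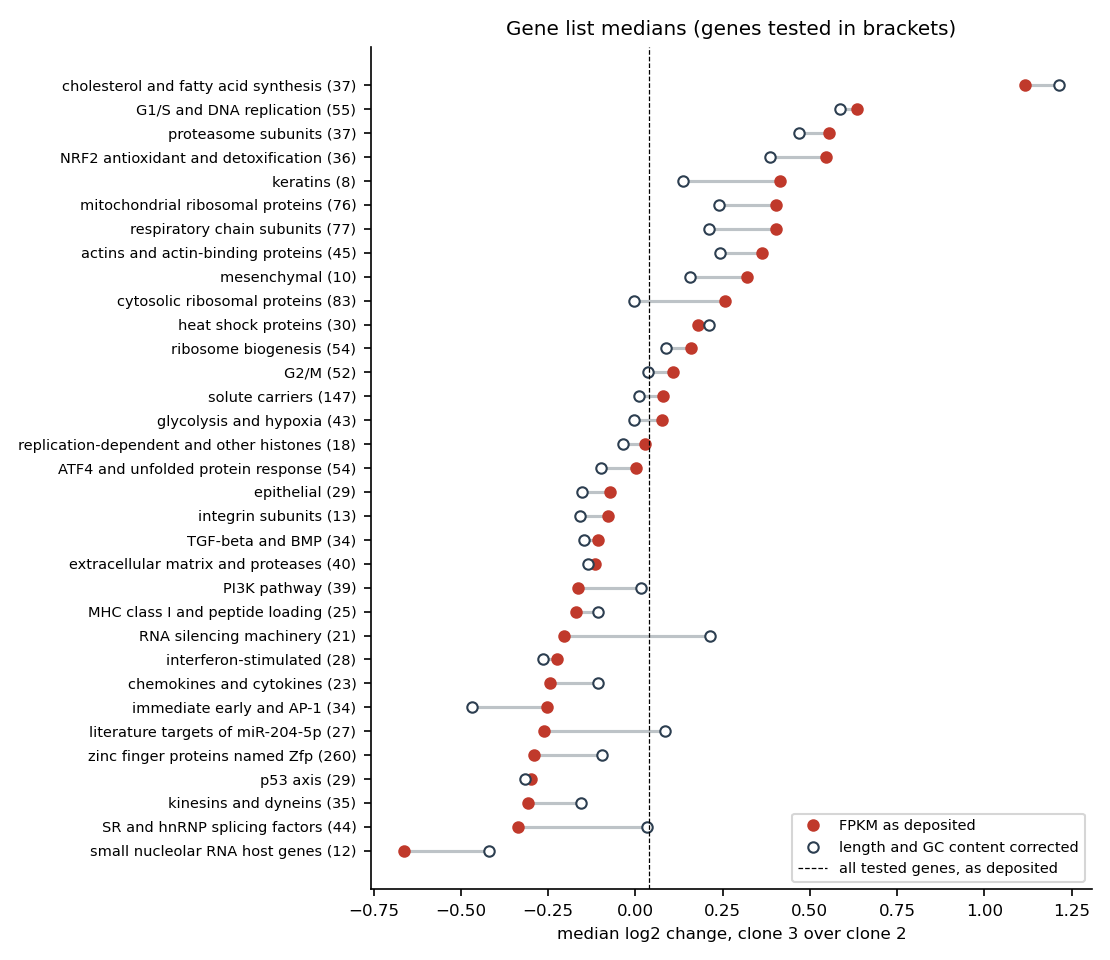
Median log2 change of clone 3 over clone 2 for 33 gene lists with at least 8 tested members, as deposited (red) and after length and GC correction (open circles). Cholesterol and fatty acid synthesis (1.12 and 1.21) and DNA replication (0.64 and 0.59) stay far from 0, splicing factors (−0.34 and 0.03) and miR-204-5p targets (−0.26 and 0.08) do not.

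Signalling genes were called lower at shares near the 17.3% of all tested genes. Of 34 TGF-beta and BMP genes 0 were higher and 8 lower (23.5%; corrected 1 and 4; 2 and 8 with quantile normalization), among them the activin subunit Inhba with 3.56, 1.8 and 1.37 FPKM in clone 3, against 24.8, 10.7 and 6.07 FPKM in clone 2 (log2 change −2.05; corrected −1.17) and the receptor Tgfbr1 (−1.27; corrected −0.39, adjusted p = 0.11). Of 23 chemokine and cytokine genes 2 were higher and 5 lower (21.7%; 1 lower without the block). Osteopontin Spp1, a secreted matrix protein, had 63.4, 81.6 and 86.6 FPKM in clone 3, against 116, 285 and 620.3 FPKM in clone 2 (log2 change −1.83, adjusted p = 0.00366; 0.0804 without the block), and clone 2 spread most. Of 28 interferon-stimulated genes 1 was higher and 6 lower (21.4%; corrected 0 and 8; 1 lower without clone 3 replicate 2), and the higher one, the transcription factor Irf1, had 21.2, 17.1 and 18.8 FPKM in clone 3, against 6.82, 7.97 and 13.2 FPKM in clone 2 and 23.9, 16.6 and 18 FPKM in control. Of 29 p53 axis genes 2 were higher and 5 lower (17.2%; corrected 0 and 5), with Gadd45a at 63.9, 21.9 and 10.8 FPKM in clone 3, against 149, 93 and 53.2 FPKM in clone 2 (log2 change −1.82; corrected −2.03; adjusted p = 0.00874 with the block and 0.126 without it), where the clones overlapped and both were highest in NTC.

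Cell identity genes were called in both directions. Of 29 epithelial genes 3 were higher and 2 lower (median −0.07, which was 0.01 with quantile normalization; corrected 0 and 4), against 12.1% higher and 17.3% lower over all tested genes. Of 10 mesenchymal genes 3 were higher and 3 lower (corrected 1 and 1). Keratin 7 Krt7 had 148, 173 and 165 FPKM in clone 3, against 105, 82.3 and 129 FPKM in clone 2 (log2 change 0.64; corrected 0.44, adjusted p = 0.128; 0.108 without the block) and the tight junction scaffold Tjp1 had 23.4, 11.9 and 14.4 FPKM in clone 3, against 44.6, 36.3 and 31.3 FPKM in clone 2 (log2 change −1.17; corrected −0.84). Zeb2, a repressor of epithelial genes, had 4.89, 2.12 and 1.93 FPKM in clone 3, against 15.8, 13.5 and 8.26 FPKM in clone 2 (log2 change −1.80; corrected −0.70). Matrix and protease genes gave 1 higher and 6 lower of 40, and integrins 1 and 2 of 13. Of 8 keratins 2 were higher and 0 lower, and of 25 genes of MHC class I and peptide loading, which show cell contents to T cells, 3 and 0 (corrected 3 and 2; 3 and 4 with quantile normalization; 4 and 5 without control replicate 1). No keratin was called higher after correction or without the block.

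Stress genes did not move in 1 direction. ATF4 and unfolded protein response genes gave 11 higher and 8 lower of 54 (corrected 3 and 3, median −0.10), glycolysis and hypoxia genes 7 and 6 of 43 (corrected median 0.00), and heat shock proteins 10 and 5 of 30, against 12.1% and 17.3% of all tested genes. Without clone 3 replicate 2 or clone 2 replicate 2 the higher counts were 0, 0 and 1. Summed FPKM of the glycolysis and hypoxia list was 9368 to 11620 in clone 3, against 6290 to 7628 in clone 2. For heat shock proteins the sums were 5534 to 6039, against 4096 to 4931. Sums of the ATF4 and unfolded protein response list overlapped, at 5812 to 7271 and 5401 to 7171. The genes given next are members with large decreases and do not stand for their lists. Ppp1r15a, which restarts translation after stress, had 40.3, 12.5 and 10.3 FPKM in clone 3, against 109, 73.6 and 30.6 FPKM in clone 2 (log2 change −1.78; corrected −2.11). Hif1a, the oxygen-regulated transcription factor, had 31.4, 22.5 and 17.8 FPKM in clone 3, against 57, 62.2 and 60.2 FPKM in clone 2 (log2 change −1.32; corrected −0.57), and its target Car9, a carbonic anhydrase, had 11.5, 15.7 and 15.6 FPKM in clone 3, against 32.9, 25.1 and 36.4 FPKM in clone 2 (log2 change −1.08; corrected −1.39). Hsp90aa1, a chaperone, had 234, 188 and 122 FPKM in clone 3, against 651, 513 and 599 FPKM in clone 2 (log2 change −1.73; corrected −1.40).

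The remaining lists gave calls in both directions, against 12.1% higher and 17.3% lower over all tested genes. Of 21 genes of RNA silencing, the machinery that loads and carries microRNAs, 4 were higher and 5 lower, or 19.0% and 23.8%. Their median was −0.21 (corrected 0.21). Ribosome biogenesis genes gave 9 higher and 10 lower of 54 (16.7% and 18.5%), and histones 2 and 1 of 18 (11.1% and 5.56%). Solute carriers, which move small molecules across membranes, gave 14 and 13 of 147 (9.52% and 8.84%). Kinesins and dyneins, the motors of microtubules, gave 2 and 10 of 35 (5.71% and 28.6%), with a median of −0.31 (corrected −0.16).

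A few genes went against the GC gradient and were singled out after their values were seen. Among genes of the lowest GC bin, 29 were called higher. The correction raised the median of this bin from −0.71 to 0.03, so it is no check on these 29 genes, which all stayed called. They included Hmgcs1, the methionine adenosyltransferase Mat2a with 63, 62.2 and 75.9 FPKM in clone 3, against 21.7, 32.4 and 40.1 FPKM in clone 2, the ubiquitin ligase subunit Rbx1 with 33.7, 51.2 and 44 FPKM in clone 3, against 19.7, 19.98 and 25.8 FPKM in clone 2, Prdx1, and Ilf2, a double-stranded RNA binder, with 58.9, 71.2 and 75.2 FPKM in clone 3, against 32.6, 29.8 and 51.4 FPKM in clone 2. Eif3j1 topped this group at 4.72, 5.65 and 0.0287 FPKM in clone 3, against 0.0253, 0.0288 and 0.0258 FPKM in clone 2 (log2 change 1.73), and its level is uncertain because reads of its near-copy Eif3j2 may be assigned to either gene.

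Some calls given above depended on the block or on the correction. Of the genes named with values, the calls of Insig1, Srebf1, Tm7sf2, Hsd17b7, Ebp, Dhcr7, Scd1 and Scd2 among lipid genes were lost without the block. So were those of Orc2, Rfc1, Pola2, Cdc20, Plk1 and Birc5 among cell cycle genes, and those of Spp1, Krt7, Gadd45a, Car9, Ppp1r15a, G6pdx, Fth1, Actg1, Sox4, Egr2 and Eif3j1. Calls lost after correction, beside those already given with their values, were those of Srebf1, Tm7sf2, Fads1, Mcm3, Orc2, Rfc1, Cdc20, Plk1, G6pdx, Actg1, Ap1s1, Irf1, Klf6 and Spred1.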

How the data were processed

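Polyadenylated RNA of 9 libraries of 4T1 cells was sequenced as paired reads with a TruSeq kit on a HiSeq2500, per the labels' protocols. The submitters' processing notes name TopHat2 2.0.13, Bowtie2 2.2.3, Cufflinks 2.2.1 and mm10. The authors' deposited table holds FPKM of 24067 genes per library, which is scaled by transcript length and library size. A further deposited table holds the authors' log2 values after quantile normalization, and it was used only to check that its group means are those of the codes (largest difference 3.55e-14 over 13414 genes). The annotation used for counting and the handling of strand and of reads with several matches are not given in the sources used here.

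log2(FPKM + 1) of genes at 1 FPKM or more in at least 3 libraries was fitted in limma 3.58.1 (R 4.3.3) with a mean-variance trend, the title group and the code as a block, for all 9 libraries together. Adjusted p-values are two-sided and by Benjamini-Hochberg over all 10783 genes. Length and GC content of the longest transcript, and 3′ UTRs, came from GENCODE M21 on GRCm38; the longest transcript may not be the one the cells use. They were corrected by natural splines of 4 degrees of freedom on each library's deviation from the gene mean, with the block. Python 3.11.15 with pandas 2.3.3, numpy 2.4.6 and matplotlib 3.10.9 made the summaries and plots.

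Named are Pik3cb, Bcl2, Mir204 and Trpm3; the 14 genes of largest change in each direction that were called, moved in 1 direction in all 3 pairs and reached a mean of 5 FPKM in clone 2 or clone 3, without predicted genes and small RNA genes; and up to 4 called members of largest change in each of 36 gene lists. Other list members are named to show a pathway, and were chosen after their values were seen. The comparison, the lists and the motifs were chosen with earlier results of these data known, and lists were not tested. A few genes that count in the lists are not reported here by name. Alternatives were no block, a pseudocount of 0.1, no filter, quantile and median ratio scaling, the 6 clone libraries alone, array weights, the length and GC correction, and each library left out.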

Additional observations from a re-analysis of the deposited data

How the results depend on the processing

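The replicate block rests on the codes: deviations of same-coded clone 3 and clone 2 libraries correlated at 0.548 (NTC), 0.0746 (C-20) and 0.551 (C-26), and clone 3 replicate 2 correlated better with clone 2 replicate 3 (0.183), so the codes are not shown to pair the libraries. Without the block 650 genes were higher, against 1306 with it, and 1380 lower, against 1870. Higher genes numbered 581 with no filter (1438 lower of 20025 genes), 2173 with the 6 clone libraries alone and 2449 with array weights. The length and GC correction left 1000 lower genes. Leaving out each library gave 166 to 2221 higher and 1049 to 2443 lower genes. The other alternatives kept both counts within 1.5 times. Why the counts moved was not tested. Of 140 tested named genes, 70 kept their direction and side of the threshold under every alternative; 32 calls were lost without the block, 41 with the correction and 47 with no filter. Chordc1, a heat shock cochaperone, was the only called gene among them to change sign: −1.57 as deposited, 0.026 corrected (limma adjusted p = 0.899). Without clone 3 replicate 2 and clone 2 replicate 2, 48 and 40 named calls were lost. Depth limits low genes: at 1 FPKM the pseudocount equals the level. With 3 libraries a clone, each of another code, a gene that misses the threshold is not shown to be equal in the clones.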
